A study of Drosophila melanogaster with 3 samples.

Results

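Of 9459 reproducible binding sites of the zinc finger protein CG2678 in whole Drosophila melanogaster embryos, 197 lay near noncoding starts only. These were starts of long noncoding RNA (lncRNA) or antisense RNA (asRNA) genes, with no protein-coding start nearby. A site was counted when its summit, the base of highest ChIP signal that the authors give for each peak, was within 500 bp of an annotated transcription start site (TSS) of a gene with the lncRNA or asRNA prefix, and more than 500 bp from every protein-coding TSS. Position alone chose the members among the 9459 sites, and no sequence entered the rule. Those sites had passed the authors' reproducibility threshold over the same replicates, so strength could enter through that step. The nearest noncoding gene was an lncRNA gene for 178 of the 197 sites and an asRNA gene for 19. The members occupied 191 separate intervals and named 183 different noncoding genes. For 14 of these genes 2 summits qualified, and no gene had 3 or more.

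The chromatin came from 1 group of embryos, mixed in sex and 0 to 24 h old, of a transgenic line that stably carries CG2678 fused at its C terminus to GFP. Chromatin of the 3 biological replicates was sheared by sonication (200 to 800 bp) before immunoprecipitation through the GFP tag, so the lists report the tagged protein summed over all embryonic cell types and ages. There is no second genotype or stage, and the sites are compared here across replicates and with other sites of the same lists. The IDR list, which holds the peaks that passed the authors' irreproducible discovery rate threshold over the replicates, was set beside the list of the pooled replicates and the 3 replicate lists, which hold 30000 peaks each. The lists contain no read counts, so the depth behind a site is unknown, and the signal values are the authors' own and are compared only within a list.

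CG2678, also called Kipferl, is best known from the ovary, where it binds guanosine-rich DNA and brings the heterochromatin protein Rhino to the loci that give rise to piRNAs, the small RNAs that silence transposons. Long noncoding RNAs are transcribed like messenger RNAs but are not translated, and antisense RNAs run across a gene of the opposite strand. A few are well studied in flies, such as Hsromega, a nuclear RNA induced by heat stress, and flam, a long piRNA source in the somatic cells around the germline. Most have only a systematic CR number and no known role.

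The sequences at the strongest sites show how runs of A and T lay around the summit. Leaving out 1 chromosome arm, whose sequence is not printed here, the 4 strongest members found in all 3 replicates are shown for their base composition. Each line gives the 201 bases centred on the summit, 5′ to 3′ on the strand of the noncoding gene, from the RefSeq dm6 assembly, with runs of at least 6 A or T in capitals. They cover 3R:17700490-17700690 (+) upstream of lncRNA:CR46036, 2L:14023991-14024191 (-) at the start of lncRNA:CR31840, 3R:29214333-29214533 (+) upstream of lncRNA:CR31044 and X:15298375-15298575 (-) upstream of asRNA:CR44429.
lncRNA:CR46036: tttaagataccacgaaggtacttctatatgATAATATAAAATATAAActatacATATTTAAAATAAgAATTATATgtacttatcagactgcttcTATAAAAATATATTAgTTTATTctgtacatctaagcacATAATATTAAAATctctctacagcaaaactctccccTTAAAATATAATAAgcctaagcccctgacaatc
lncRNA:CR31840: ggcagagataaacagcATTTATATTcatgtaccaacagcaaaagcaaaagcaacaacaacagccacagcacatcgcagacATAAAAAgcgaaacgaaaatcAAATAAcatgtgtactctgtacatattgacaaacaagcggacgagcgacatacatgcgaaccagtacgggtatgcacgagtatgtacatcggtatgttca
lncRNA:CR31044: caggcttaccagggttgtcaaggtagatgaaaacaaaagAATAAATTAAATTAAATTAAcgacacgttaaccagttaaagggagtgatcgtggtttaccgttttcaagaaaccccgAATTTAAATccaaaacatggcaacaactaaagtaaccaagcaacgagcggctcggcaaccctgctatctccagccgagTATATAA
asRNA:CR44429: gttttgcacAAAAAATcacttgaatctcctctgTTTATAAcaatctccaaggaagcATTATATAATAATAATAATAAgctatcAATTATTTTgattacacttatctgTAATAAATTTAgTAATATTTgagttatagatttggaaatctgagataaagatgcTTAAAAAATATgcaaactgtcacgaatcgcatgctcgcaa
The CR46036 window held 7 such runs covering 86 bases, the longest of 17 bases. The asRNA:CR44429 window held 7 runs covering 74 bases, the longest of 21 bases. The CR31840 window held 3 runs covering 22 bases, and the CR31044 window held 3 runs covering 36 bases, so strong sites differed widely in this feature.

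The sites at Hsromega and flam are shown because these genes have known roles, and the sites at lncRNA:CR42755 and lncRNA:CR44852 because they were the weakest outside that arm. The windows are 3R:21296242-21296442 (+), X:21631602-21631802 (+), 3L:11384141-11384341 (-) and 2L:14533571-14533771 (-), in the same build and format.
lncRNA:Hsromega: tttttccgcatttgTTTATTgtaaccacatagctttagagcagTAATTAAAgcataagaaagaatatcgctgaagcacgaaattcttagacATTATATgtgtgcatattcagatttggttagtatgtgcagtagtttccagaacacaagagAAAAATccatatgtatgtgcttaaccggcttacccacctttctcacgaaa
lncRNA:flam: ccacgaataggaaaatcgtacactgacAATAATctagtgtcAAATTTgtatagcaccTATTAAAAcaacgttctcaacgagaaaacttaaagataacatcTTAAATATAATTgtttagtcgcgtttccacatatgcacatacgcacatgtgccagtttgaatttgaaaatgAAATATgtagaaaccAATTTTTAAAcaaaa
lncRNA:CR42755: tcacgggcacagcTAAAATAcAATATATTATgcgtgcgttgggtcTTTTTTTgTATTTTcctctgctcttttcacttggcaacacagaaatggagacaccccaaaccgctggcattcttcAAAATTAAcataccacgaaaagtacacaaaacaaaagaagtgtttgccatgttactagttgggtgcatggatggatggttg
lncRNA:CR44852: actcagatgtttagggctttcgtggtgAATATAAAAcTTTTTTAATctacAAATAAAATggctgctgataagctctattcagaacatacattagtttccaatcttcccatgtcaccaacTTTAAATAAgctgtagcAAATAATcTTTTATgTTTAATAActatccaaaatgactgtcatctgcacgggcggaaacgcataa
The Hsromega window held 4 runs covering 27 bases and the flam window 6 runs covering 48 bases. The weak sites were not free of such runs, with 5 runs over 38 bases at CR42755 and 7 runs over 57 bases at CR44852.

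Some noncoding promoters carried peaks among the strongest of the list, and 5 of the 100 strongest IDR peaks were members. The strongest was at 3R:17700217-17701433, with its summit 151 bp upstream of lncRNA:CR46036, inside an intron of osa on the opposite strand. osa encodes a subunit of the Brahma chromatin remodelling complex. Its signal was 2043.9, 4991.2 and 2379 in the lists of replicates 1, 2 and 3 and 9379 in the IDR list. It ranked 51, 26 and 41 in the replicates and 35 in the pooled data, so every replicate placed it near the top.

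The peak at 2R:12984875-12985511 lay 155 bp upstream of lncRNA:CR44339 and 4218 bp from the nearest coding TSS, that of the Polycomb group gene Psc. It had a signal of 2387, 4393.3 and 2346.4 in replicates 1, 2 and 3 and ranked 34, 37 and 44. Its summit window held an A or T run of 35 bases. The peak at 2L:14023369-14025198 had its summit 8 bp inside lncRNA:CR31840, ranked 39, 54 and 33, and had a signal of 2305, 3913.4 and 2601.5. A neighbouring site at 2L:14020776-14022870, 272 bp upstream of lncRNA:CR45352 and near NimC3, a Nimrod family gene, ranked 111, 101 and 121. Their intervals of 1830 and 2095 bp were wide beside the members' median of 397 bp.

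The peak at 3R:29214136-29214752 was 129 bp upstream of lncRNA:CR31044, between coding genes and 5739 bp from eEF1gamma, which encodes a translation elongation factor subunit. It ranked 59, 69 and 60, with a signal of 1996.4, 3599.9 and 2112.1. The strongest antisense site, at X:15298213-15298911, was 258 bp upstream of asRNA:CR44429 in an intron of gce, which encodes a juvenile hormone receptor. It ranked 96, 79 and 58, with a signal of 1659.6, 3381.5 and 2124.3, and its summit was 534 bp from the gce TSS, close to the edge of the rule. None of these 6 sites ranked below 121 in any replicate.

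The next sites by pooled signal lay in varied surroundings. A pair inside introns of beat-Ib, a gene of the beaten path family of axon guidance proteins, belonged to lncRNA:CR44868 and lncRNA:CR44867. CR44868 ranked 174, 186 and 251 and CR44867 ranked 289, 221 and 246. lncRNA:CR45541, near the hexokinase gene Hex-A, ranked 256, 206 and 254. lncRNA:CR44810, near slbo, which encodes a C/EBP factor, ranked 146, 293 and 298, a wider spread. lncRNA:CR45251 had 2 members, 1 on each side of its start. The stronger one, in the widest interval of the set at 3107 bp, ranked 361, 247 and 168, and was the strongest member on arm 3L. lncRNA:CR42657, 673 bp from the TSS of nej, which encodes the acetyltransferase CBP, ranked 248, 261 and 305.

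**Figure D1:**
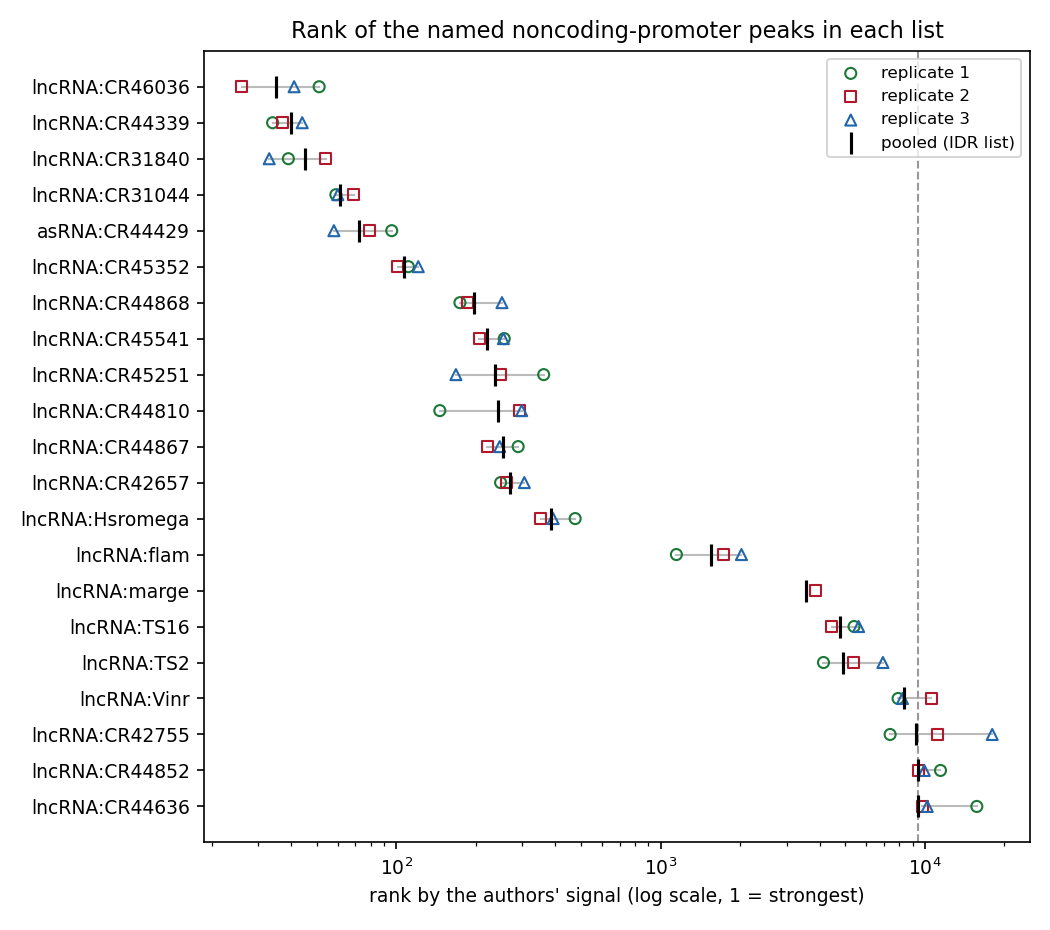
Rank by the authors' signal (log axis, 1 is the strongest) of 21 noncoding-promoter peaks in the lists of replicates 1, 2 and 3 (open symbols) and in the IDR list (black bar), ordered by pooled signal. The dashed line marks rank 9459, the length of the IDR list; the 5 strongest sites stay within ranks 26 to 96, while CR42755 runs from 7395 to 18008 and CR44636 from 9778 to 15745.

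Among lncRNA genes with known roles, Hsromega carried the strongest site. Its summit at 3R:21296342 was 215 bp downstream of the TSS and inside the gene, and the interval was 3R:21296025-21296841. The signal was 747, 1728.4 and 941 in replicates 1, 2 and 3, at ranks 475, 352 and 392. The flam site, at X:21631502-21631917, was 189 bp upstream of the flam TSS and 1554 bp from the neighbouring gene DIP1. Its signal was 434, 637 and 321 at ranks 1148, 1731 and 2024, weaker than Hsromega in every replicate. Both summits departed from the pattern of low GC: GC was 35.6% at the Hsromega summit and 32.2% in its flanks, and 33.7% at the flam summit and 28.2% in its flanks.

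The other members with a name of their own were weaker. TS16 and TS2, from a set of testis-specific noncoding RNA genes, had summits 45 and 33 bp upstream of their starts. TS16 ranked 5400, 4446 and 5619, and TS2 ranked 4137, 5396 and 6945. Vinr, an lncRNA gene with a role in innate immunity, ranked 7926, 10593 and 8234, and in replicate 2 was outside the 9459 strongest peaks. marge had a summit within 100 bp only in replicate 2, at rank 3846, and in all 3 replicates when the distance was widened to 200 bp. These named loci span the range of the set and do not cluster at its strong end.

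Out of 16 lncRNA genes with a known role on a list drawn up with earlier results of these data known, 4 had an IDR summit in the 500-bp window (Hsromega, flam, Vinr and marge), against 231 of all 1944 lncRNA genes (11.9%). A further 4 had a summit only in the longer pooled list: roX2, an RNA of the dosage compensation complex, at 80 bp with a signal of 140, iab8 of the bithorax complex at 85 bp with a signal of 119, acal at 85 bp with a signal of 55.5, and noe at 380 bp with a signal of 75.4. The remaining 8 had neither. For roX1, the other RNA of the dosage compensation complex, the nearest IDR summit was 4522 bp from a TSS, and for bxd of the bithorax complex it was 1400 bp. The Uhg genes, which host snoRNAs, carry no lncRNA prefix and cannot be members. Of 7 with a gene model, 3 had an IDR summit within 500 bp, and that of Uhg4, with a signal of 1992.1, was also 537 bp from the nearest coding TSS.

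Strength varied widely among the members and overlapped that of sites elsewhere. The authors' signal in the IDR list ranged from 238 to 9379 over the members with a median of 586, against medians of 626 over the 2983 peaks within 500 bp of a coding TSS and 484 over the 6279 peaks more than 500 bp from every coding and noncoding TSS. Those sets are called coding-promoter peaks and peaks away from both. Of the 946 strongest IDR peaks, 34 were members. That was 17.3% of the members, against 16.7% of coding-promoter peaks and 6.61% of peaks away from both. At the weak end, 15 members (7.61%) were among the 946 weakest, against 8.45% and 10.8% of the others. The weakest members were lncRNA:CR42755 at a signal of 241.7, lncRNA:CR44852 at 238.1 and lncRNA:CR44636 at 238.0.

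Most members were found in each replicate on its own. A summit within 100 bp, among as many of a replicate's strongest peaks as the IDR list holds, matched 161 of the 197 members in replicate 1, 181 in replicate 2 and 166 in replicate 3. In all 3 replicates 134 members (68.0%) were matched, beside 62.0% of all IDR peaks. A further 45 were matched in 2 replicates, 16 in 1, of which 10 in replicate 2 alone, and 2 in none (CR44852 and CR44636). Of the 63 members short of all 3 matches, 55 were in the weaker part of the set, below its median signal. In the full replicate lists 174 of the 197 had a summit within 100 bp in every replicate.

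Per replicate, 86.0% ± 5.28 of members were matched, against 82.1% ± 4.32 of coding-promoter peaks (SD, n = 3 each). The difference, 3.89 ± 5.06 percentage points, was positive in 2 of 3 replicates and smaller than its spread (exact sign-flip permutation test, two-sided, p = 0.50). Against the 81.8% ± 6.37 of peaks away from both, the difference was 4.16 ± 2.71 points and positive in 3 of 3 replicates (exact sign-flip permutation test, p = 0.25). That difference was 0.0600 points in the full replicate lists, 9.72 points among the 5000 strongest replicate peaks and -0.859 points for IDR peaks above the list's median signal (its stronger part). With 3 replicates this test cannot give a p below 0.25, so no comparison here can pass 0.05, and every p-value covers only the spread between these 3 samples. The IDR list was derived from the same replicates, so these match rates are not independent of it.

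Within the replicates the members ranked close to coding-promoter peaks. The median rank percentile, where 100 is the strongest of a replicate's 30000 peaks, was 86.1 ± 0.587 for members, against 87.4 ± 1.04 for coding-promoter peaks and 82.4 ± 1.40 for peaks away from both (SD, n = 3). Members minus coding-promoter peaks came to -1.39 ± 1.50, with 1 of 3 replicates positive (exact sign-flip permutation test, p = 0.50). Members minus peaks away from both came to 3.65 ± 0.948, with 3 of 3 positive and a lowest value of 2.82 (exact sign-flip permutation test, p = 0.25). The second difference was larger than the spread between replicates, and the first was not.

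**Figure D2:**
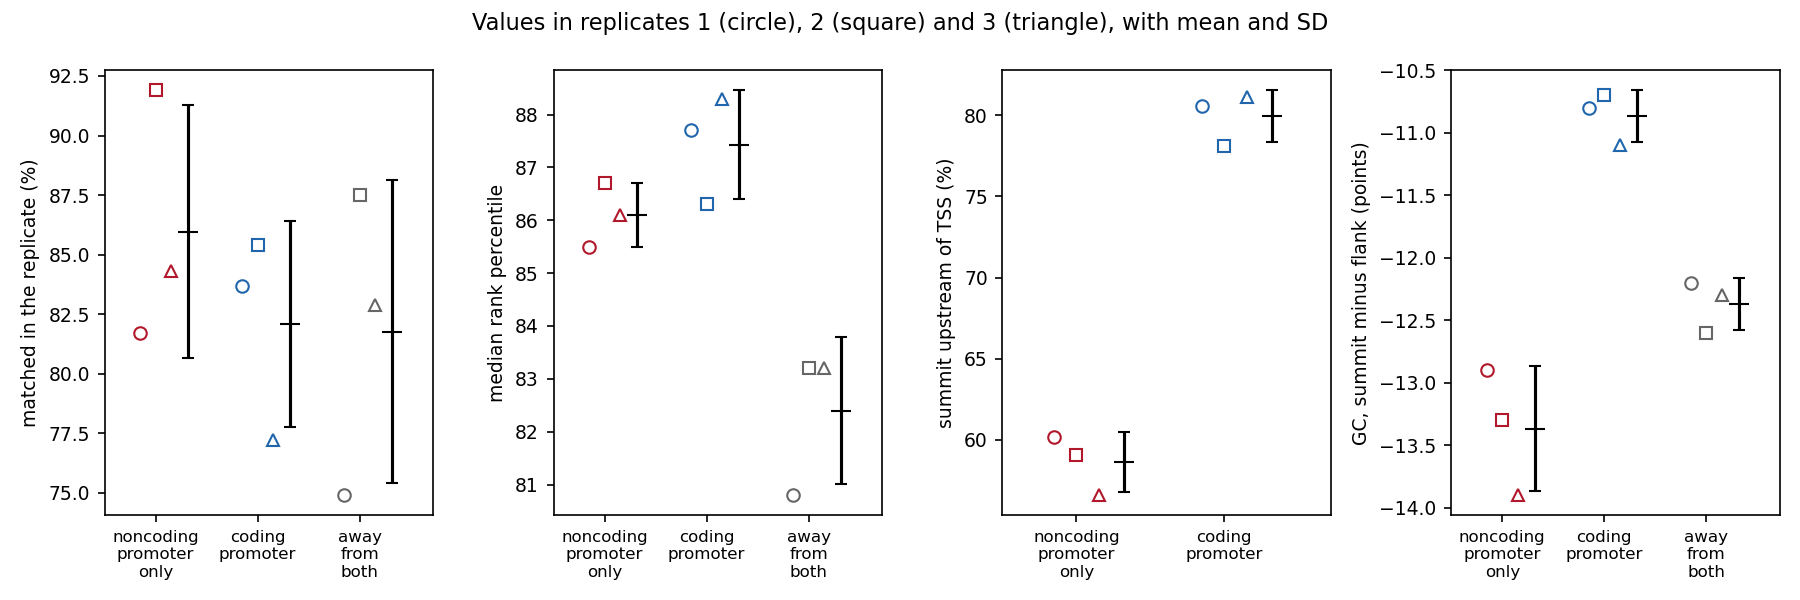
Share of IDR peaks matched in each replicate, median rank percentile, share of summits upstream of the TSS and GC at the summit minus flank, for noncoding-promoter peaks, coding-promoter peaks and peaks away from both; points are replicates and bars give the mean and SD (n = 3), on axes that do not start at 0. The upstream shares do not overlap, at 56.6% to 60.2% for noncoding against 78.1% to 81.1% for coding promoters, while the matched shares overlap between all classes.

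Seen from the genes, most noncoding starts had no reproducible peak. Of 2022 lncRNA and asRNA genes with a TSS more than 500 bp from every coding TSS, 206 (10.2%, 95% exact interval 8.90% to 11.6%) had at least 1 IDR summit at that distance of a start, beside 22.5% of coding genes (3141 of 13945) and 19.8% of all genes other than transposable elements. Of the 425 noncoding genes whose every TSS lies within 500 bp of a coding TSS, 88 (20.7%, 17.0% to 24.9%) had one. In the replicates' own strongest peaks the share was 10.3%, 10.3% and 11.0% for the remote noncoding genes, against 29.5%, 23.2% and 21.7% for coding genes, and the ranges did not overlap. The intervals cover counting error only, and neighbouring genes share peaks. A gene with more annotated starts had more windows in which to hold a summit, and the shares were not adjusted for this. Among remote genes, 183 of 1694 lncRNA genes (10.8%) and 23 of 328 asRNA genes (7.01%, 4.50% to 10.3%) had a summit.

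The rule found 673 summits in the whole pooled list of 30000 peaks, of which 29.3% were in the IDR list, against 31.5% of all pooled peaks. The share was 46.2% of 6463 summits at coding promoters and 27.5% of 22864 summits away from both. Applied to the 9459 strongest peaks of each replicate, the rule found 198, 204 and 210 summits, close to the 197 of the IDR list.

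The summits were spread on both sides of the noncoding start. In the IDR list 112 of the 197 (56.9%) were upstream of the noncoding TSS, against 2302 of 2978 coding-promoter peaks (77.3%) with a summit off the TSS base. Members were most frequent from 100 to 200 bp upstream and within 100 bp upstream, with 26 each, and a second group of 43 lay 300 to 500 bp downstream. Over 200 bp downstream there were 55 members (27.9%), against 176 coding-promoter peaks (5.90%). Coding-promoter peaks were concentrated upstream, with 1307 of 2983 (43.8%) within 200 bp upstream, against 52 members (26.4%). The median distance to the TSS was 236 bp for members and 158 bp for coding-promoter peaks. Each 100-bp bin held between 6.09% and 13.2% of the members. The rule gave 105 members with a 250-bp window and 388 with 1000 bp, so their number rose about in step with the window.

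Measured at each replicate's own summits, 58.7% ± 1.85 of members were upstream of the noncoding TSS, against 79.9% ± 1.60 of coding-promoter peaks (SD, n = 3). The difference was -21.3 ± 2.86 points, between -24.5 and -19.0, and negative in 3 of 3 replicates (exact sign-flip permutation test, p = 0.25). Its size depended on the window around the noncoding TSS, at -14.1 points with 250 bp and -30.5 points with 1000 bp. The coding window stayed at 500 bp in both. The precision of the annotated noncoding starts was not tested.

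**Figure D3:**
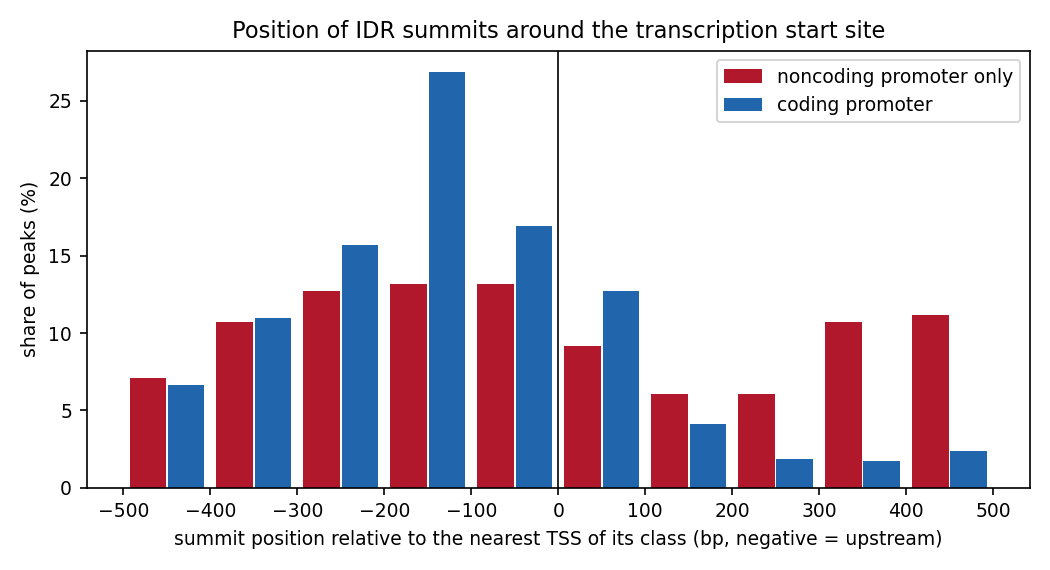
Position of IDR summits relative to the nearest TSS of their class in 100-bp bins, as a share of the 197 noncoding-promoter peaks (red, left bar) and the 2983 coding-promoter peaks (blue, right bar). Coding-promoter summits peak from 100 to 200 bp upstream, while the members spread over both sides, with 27.9% more than 200 bp downstream against 5.90%.

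Around the summits GC content dropped to a sharp minimum. Within 50 bp of the members' summits GC was 31.6% ± 0.416, against 45.0% ± 0.106 in windows of the same size 300 bp to either side, a difference of -13.4 ± 0.490 points (SD, n = 3) that was negative in 3 of 3 replicates (exact sign-flip permutation test, p = 0.25). The replicates read mostly the same sites in the same reference sequence, so this SD does not cover the spread between sites. That also holds for the upstream shares above and for the word shares and splits of members below. In the 33 to 38 members per replicate with no soft-masked (lower case, repeat-like, in RefSeq) base near the summit, GC was 36.9% ± 1.21 at the summit and 42.5% ± 0.0520 in the flanks, a difference of -5.57 points. The flanks of these members were not filtered for masking. In the IDR list 163 of the 197 members (82.7%) had lower GC at the summit than in the flanks. That was close to the 82.6% of peaks away from both, and the share was 74.3% of coding-promoter peaks. In profiles of 25-bp windows the members' mean fell below 40% GC from 100 bp upstream to 75 bp downstream of the summit, with a minimum of 30.2% ± 0.656 at the summit. The coding-promoter profile stayed below 40% from 250 bp upstream to 75 bp downstream, and the profile of peaks away from both from -100 to 100 bp.

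Against coding-promoter peaks, the size of the difference in this dip depended on where the flanks lay. The summit minus flank difference was -13.4 ± 0.490 points for members and -10.8 ± 0.195 points for coding-promoter peaks, and the first minus the second was -2.55 ± 0.385 points and negative in 3 of 3 replicates (exact sign-flip permutation test, p = 0.25). It was -0.159 points with flanks centred at 500 bp and -1.01 points in the stronger part of the IDR list. Against peaks away from both, at -12.4 ± 0.231 points, the members differed by -1.04 ± 0.500 points (exact sign-flip permutation test, p = 0.25). That second difference turned to 0.965 points when summits with a soft-masked base nearby were left out. At 200 bp upstream GC was 43.6% ± 0.300 for members and 39.2% ± 0.361 for coding-promoter peaks, and 200 bp downstream 45.1% ± 0.252 for members and 44.5% ± 0.252 for coding-promoter peaks (SD, n = 3). At 500 bp upstream it was 43.1% ± 0.153 for members and 42.5% ± 0.416 for coding-promoter peaks, and 500 bp downstream 43.5% ± 0.493 for members and 47.2% ± 0.265 for coding-promoter peaks.

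**Figure D4:**
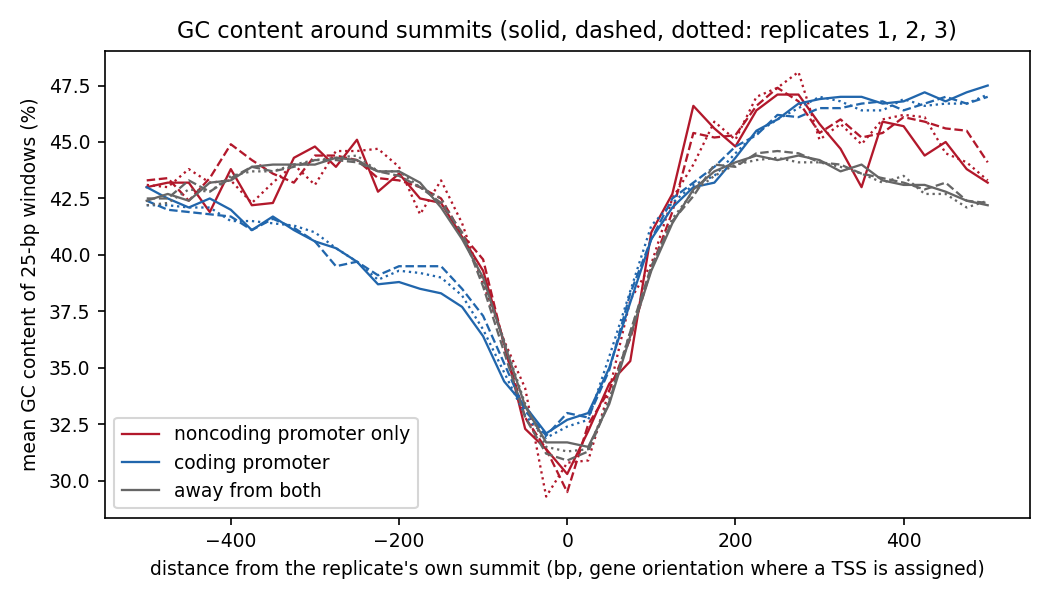
Mean GC content of 25-bp windows from 500 bp upstream to 500 bp downstream of each replicate's own summit, for noncoding-promoter peaks, coding-promoter peaks and peaks away from both (lines are replicates; the first 2 classes are oriented along their gene). All classes dip at the summit; the members reach 30.2% and return to 43.6% by 200 bp upstream, where coding-promoter peaks are at 39.2%.

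Single members departed from this average in both directions. The lowest summit GC was 14.9%, at lncRNA:CR44276 with a signal of 3073 and flanks at 51.5%, and at lncRNA:CR45641 with a signal of 969 and flanks at 55.9%. The highest was 61.4% at lncRNA:CR44717, with a signal of 343.3 and flanks at 28.2%. lncRNA:CR44371 had 59.4% at its summit and 52.5% in its flanks and was matched in all 3 replicates. The longest A or T run within 50 bp of a summit had a median of 10 bases, against 7.5 in the flanks, and reached 38 bases at lncRNA:CR44728. The median at the summit was also 10 bases for coding-promoter peaks, with 8.0 in their flanks, and for peaks away from both, with 7.5 in their flanks.

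Words of A and T, searched on both strands, were more frequent near the summit than in the flanks in every replicate. TATAAA, the core of the TATA box, was within 22.2% ± 1.01 of member summit windows and 7.91% ± 0.926 of flank windows, and AAAAAA within 29.9% ± 1.43 and 18.3% ± 1.25 (SD, n = 3). Both differences, 14.3 ± 1.77 and 11.7 ± 1.95 points, were positive in 3 of 3 replicates (exact sign-flip permutation test, p = 0.25 each). In the IDR list TATAAA was near 43 of 197 member summits (21.8%), against 25.1% of all IDR summits. In the IDR list 44 members had no soft-masked base near the summit. Over the 33 to 38 of them measured per replicate the order was the other way. TATAAA was in 14.1% ± 5.46 of summit windows and 15.3% ± 1.17 of flank windows, and AAAAAA in 15.6% ± 4.81 and 19.3% ± 3.58. Masking was checked at the summit and not in the flanks, so the windows were not selected alike and this order cannot be weighed.

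The guanosine-rich words associated with the protein were less frequent at the summits than beside them. Base composition also differed between summit and flanks, and no word share was adjusted for it, so these shares are not separate from the GC dip. GAGG or GGGG was within 26.1% ± 1.83 of member summit windows and 61.0% ± 2.00 of flank windows, a difference of -34.9 ± 2.71 points (exact sign-flip permutation test, p = 0.25, negative in 3 of 3 replicates). Coding-promoter peaks differed by -18.9 ± 0.884 points and peaks away from both by -28.4 ± 0.732 points. The members' difference minus that of coding-promoter peaks was -16.0 ± 2.76 points and negative in 3 of 3 replicates (exact sign-flip permutation test, p = 0.25), and -6.45 points with flanks at 500 bp. Members with no soft-masked base at the summit held the words in 38.2% ± 4.12 of summit windows. Their unfiltered flank windows held them in 59.2% ± 1.62. These windows were not selected alike, so that order cannot be weighed. In the IDR list 26.4% of member summits held such a word, against 29.8% of all IDR summits.

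Words bound by known promoter factors were each found near a minority of the summits. TATCGATA, bound by Dref, was found at 0 of 197 member summits, which allows a share of up to 1.52%. It was at 55 of 2983 coding-promoter summits (1.84%) and at 10 of 6279 summits away from both (0.159%). GGTCACAC, bound by M1BP, was found at 0 of 197 member summits, with the same limit, against 29 coding-promoter summits (0.972%) and 18 away from both (0.287%). The shares away from both lie under that limit, so 197 sites cannot show a difference from those peaks for either word. The coding shares lie near or under it, so for GGTCACAC a difference from coding promoters cannot be shown either. GAGAG, bound by GAGA factor and overlapping GAGG in part, was within 6.85% ± 1.43 of member summit windows and 14.8% ± 1.14 of flank windows. In members with no soft-masked base at the summit GAGAG was within 12.8% ± 7.21 of summit windows and 4.75% ± 2.55 of unfiltered flank windows. GCCAT, the core of the Pho site, was within 11.5% ± 2.65 and 17.8% ± 0.904, and ACACAC within 6.25% ± 1.65 and 10.2% ± 0.867. CAGGTA, bound by Zelda, was within 2.36% ± 0.589 and 2.26% ± 0.392, a difference smaller than its spread. TCAGTT, the initiator, was within 7.32% ± 1.75 of summit windows and 5.60% ± 0.478 of flank windows. The difference, 1.73 ± 1.74 points, was positive in 3 of 3 replicates (exact sign-flip permutation test, p = 0.25). It was 5.57 points with a 250-bp window around the TSS and 5.60 points in the stronger part of the IDR list. With every coding TSS over 1000 bp away it was 0.290 points, and it was -0.321 points when only 25 bp to either side was searched. In IDR summits as a whole the shares were 8.77% for GAGAG, 12.8% for GCCAT, 5.98% for ACACAC, 1.71% for CAGGTA, 6.72% for TCAGTT and 27.8% for AAAAAA.

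**Figure D5:**
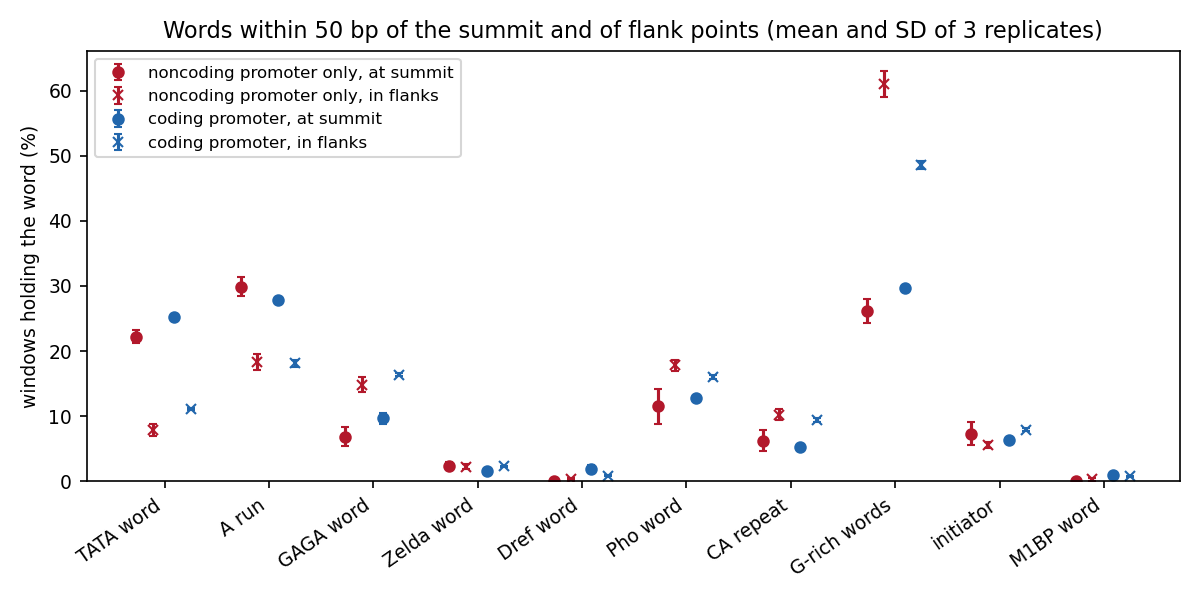
Share of windows holding each word within 50 bp of the summit (dots) and of points 300 bp to either side (crosses), mean and SD of 3 replicates, for noncoding-promoter peaks (red) and coding-promoter peaks (blue). The largest gap is for GAGG or GGGG, at 26.1% of member summits and 61.0% of member flanks.

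Sites differed among themselves with their surroundings and their strength. The 112 members upstream of their TSS had a median rank percentile of 88.2 ± 0.941, against 83.3 ± 0.138 for the 85 downstream, a difference of 4.86 ± 0.873 in 3 of 3 replicates (exact sign-flip permutation test, p = 0.25). Their GC difference was -14.7 ± 0.396 points against -11.5 ± 0.734 points, and TATAAA was at 27.7% of the upstream and 14.1% of the downstream summits in the IDR list. The 44 members within 100 bp of the TSS ranked lower, at 81.3 ± 0.631, than the 92 over 250 bp away, at 86.7 ± 0.456 (exact sign-flip permutation test, p = 0.25, -5.43 ± 0.687). The 61 members at 100 to 250 bp were at 87.9 ± 1.57, near those farther away. The 99 stronger members had a GC difference of -15.7 ± 0.101 points and the 98 weaker ones -10.3 ± 1.33 points, lower in the stronger members in 3 of 3 replicates (exact sign-flip permutation test, p = 0.25). All 3 replicates matched 91.9% of the stronger members and 43.9% of the weaker. That contrast follows largely from the definitions, since the split used the pooled signal and a match requires a strong peak in the same replicates.

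The 19 asRNA sites had a higher median rank than the lncRNA sites in these replicates. Their median rank percentile was 89.4 ± 0.593, against 85.6 ± 0.242 for the 178 lncRNA sites, a difference of 3.81 ± 0.370 (exact sign-flip permutation test, p = 0.25, higher in 3 of 3 replicates). The replicates measured the same 19 sites, so this SD does not cover the spread between sites. All 3 replicates matched 68.4% of the asRNA sites and 68.0% of the lncRNA sites. Of the asRNA summits 15 of 19 (78.9%, 95% exact interval 54.4% to 93.9%) were upstream of the TSS, against 97 of 178 lncRNA summits (54.5%, 46.9% to 62.0%). Of the 19 asRNA sites 12 were inside a coding gene, 11 of them with the RNA on the opposite strand, against 44 of 178 lncRNA sites, and 10 of 19 were within 1000 bp of a coding TSS, against 19 of 178. After asRNA:CR44429 the strongest were asRNA:CR45908 in an intron of CG1943, with a signal of 2847, and asRNA:CR45999 near CG34112, with 2553. asRNA:CR46194, in an intron of Oda, the gene of ornithine decarboxylase antizyme, had a signal of 1708. The weakest was asRNA:CR44600 in an intron of CG7110, at 322.7.

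Most members lay between coding genes. Of the 197, 141 (71.6%) were outside every coding gene and 56 (28.4%) inside one, of which 51 in an intron and 5 in an exon. The noncoding gene was on the opposite strand of its host for 42 of the 56. Shares for other IDR peaks and for all annotated noncoding starts are not given, so these counts describe the members alone. The intronic sites had 46 different combinations of host genes, with osa and beat-Ib among those hosting 2, and their hosts also included gce, ChAT, which encodes choline acetyltransferase, and dlp, a glypican. Sites inside and between coding genes had median rank percentiles of 86.2 ± 1.06 and 86.0 ± 0.424, and the difference of 0.288 ± 0.638 was smaller than its spread, with 2 of 3 replicates positive (exact sign-flip permutation test, p = 0.75). The exonic sites were at asRNA:CR45136 in CG30015 with a signal of 1429, lncRNA:CR43626 in CG43389 with 514.7, lncRNA:CR44084 in the innexin gene ogre with 403, lncRNA:CR45635 in CG5399 with 351.1, and lncRNA:CR44930 in Ama, an immunoglobulin-domain gene, with 276.4.

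The distance to the nearest coding TSS had a median of 3033 bp and reached 40313 bp. It was at most 1000 bp for 29 members and over 10000 bp for 37. The GC dip was shallower at the 29 nearer sites, at -8.22 ± 0.163 points, than at the 70 over 5000 bp away, at -16.4 ± 0.398 points, a difference of 8.13 ± 0.422 points in 3 of 3 replicates (exact sign-flip permutation test, p = 0.25). The most remote members included lncRNA:CR44917 with a signal of 2780 at 30825 bp from CG11629, lncRNA:CR45588 with 1100 at 32875 bp from corto, and lncRNA:CR43431 with 279.3 at 40313 bp from mirr. None of the 197 had an annotated transposable element within 50 bp. One, at lncRNA:CR45478, had another class of noncoding gene within 500 bp, the microRNA gene mir-2496. Neither count is given for the other IDR peaks, so both describe the members alone.

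For 5 of the 197 members (2.54%) the nearest coding TSS was that of a listed developmental regulator, beside 2.86% of all IDR peaks, 0.771% of coding-promoter peaks and 3.87% of peaks away from both. The 5 were lncRNA:CR44526 with hry and a signal of 1310, lncRNA:CR44739 with tup and 596.6, lncRNA:CR45695 with chinmo and 585.8, lncRNA:CR42651 with Dfd and 453.6, and lncRNA:CR45286 with dpp and 270.9. hry is a pair-rule repressor, tup a LIM homeodomain factor, chinmo a factor of neuronal timing, Dfd a Hox gene and dpp a BMP ligand. Their distances were 16389, 18866, 4514, 24891 and 18154 bp. The share of members was near that of all IDR peaks.

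The members were distributed over the arms much as all sites were. There were 44 on 2L, 38 on 2R, 40 on 3L, 45 on 3R and 30 on X, with 0 on chromosome 4, which holds 8 IDR peaks. The X held 15.2% of the members and 19.6% of all IDR peaks. Another IDR peak was within 2 kb of 119 of the 197 members (60.4%), against 51.5% of coding-promoter peaks and 54.0% of peaks away from both, and another member was within 2 kb of 35. At lncRNA:CR45668, near the actin gene Act5C, the 2 members had signals of 3080 and 271.7, and at lncRNA:CR43626 they had 3930 and 514.7, so paired summits could differ widely.

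Both weak and strong summits lay close to the edges of the rule. Only some of them are given here, and strength on either side of an edge was not compared. Just inside the 500-bp window were the summits at lncRNA:CR43334 at 498 bp, with a signal of 361.6, and lncRNA:CR44363 at 496 bp, with 3443. Just outside it were lncRNA:CR43932 at 501 bp, with 433.2, and lncRNA:CR44619 at 503 bp, with 4882. On the coding side lncRNA:CR45478 was kept at 501 bp from PIG-K, with 957.1, and asRNA:CR46044 was left out at 482 bp from Septin2, with 1910. In all, 316 IDR summits were within 500 bp of a noncoding TSS, and 119 of them were left out because a coding TSS was also within 500 bp.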

How the data were processed

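ChIP-seq peaks of GFP-tagged CG2678 from 3 biological replicates (1 group) were analysed as 5 deposited lists in dm6: 1 per replicate, 1 of the pooled replicates and the IDR list. Per the deposited file descriptions, peaks were called against a control library, which is not analysed here; the aligner, peak caller and thresholds were not given in the sources used here. The deposited signal value of each peak has no stated scale and was compared only inside its own list. The −log10 q-value, as deposited, was not used, since ties at its maximum prevent ranking. No list gives read counts, so depth per sample is unknown.

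TSSs came from Ensembl release 115 (BDGP6.54) and sequence from RefSeq dm6, whose arm lengths match. A match was a summit within 100 bp among the 9459 strongest peaks of a replicate. GC and 10 words were scored within 50 bp of each replicate's matched summits and of points 300 bp either side. Differences within replicates were tested with an exact two-sided sign-flip permutation test. The named members were the 12 strongest matched in all replicates, those with names of their own, the strongest per arm and the 3 weakest; other genes were chosen after their values were seen. Sequences of the weakest and strongest members followed a rule, and those of Hsromega and flam were added. Members, lists and words were chosen with earlier results of these data known. The scripts were tested on simulated data. Python 3.11.15, numpy 2.4.6, pandas 2.3.3 and scipy 1.17.1 were used. The alternatives are windows, distances, one TSS or summit per gene or interval, stronger peaks, unmasked summits and leaving out each replicate.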

Additional observations from a re-analysis of the deposited data

How the results depend on the processing

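Matches, ranks, positions, GC, words and gene shares were recomputed under those of 16 other settings that apply to each, chosen with earlier results known. Splits among members, signal medians, distance bins, neighbour counts and coding-gene shares were not. Of the recomputed values 306 kept their direction or stayed within the limits set, 26 moved and 14 reversed. The number of members was 105 with a 250-bp window, 388 with 1000 bp and 107 in the stronger part of the IDR list. The share of lncRNA genes with a summit was then 6.43%, 20.7% and 6.69%, and of asRNA genes 7.36%, 19.3% and 7.36%. The share of members matched in all replicates was 91.6% for those stronger peaks, 56.9% within 50 bp, 75.1% within 200 bp, 43.7% among the 5000 strongest replicate peaks and 88.3% in the full lists. Leaving out each replicate gave 72.1% to 78.7%, since fewer matches are then required. The matched share of members minus peaks away from both became -0.859 points in the stronger part, and minus coding-promoter peaks -0.925 points among the 5000 strongest. CAGGTA, summit minus flank, was 0.102 points and became -0.304 with 1000 bp, -0.363 with coding TSSs over 1000 bp away, -0.319 with 1 summit per interval, -1.28 in the stronger part, and -0.483 both within 25 bp and with flanks at 500 bp. Leaving out a replicate gave -0.449 to 0.464. TCAGTT became -0.321 within 25 bp. The unmasked setting filtered summit windows and not flanks. For unmasked summits the GC difference of members minus peaks away from both was 0.965 points, TATAAA was -1.24, AAAAAA -3.71 and GAGAG 8.0 points. The cause of these shifts was not tested.

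No paired analysis was possible because there is no second group of samples to pair; differences between classes of peaks were taken within each replicate. Depth is unknown, 3 replicates cannot give p below 0.25, and the IDR list is not independent of the replicates. The peak at marge was matched in 3 replicates within 200 bp, and those at Vinr, CR42755, CR44852 and CR44636 in 3 in the full lists.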
